A study of Mus musculus with 18 samples.

Results

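Interferons switch on a program of genes that sense viral nucleic acid, restrict pathogens inside the cell, call in immune cells and amplify the interferon signal itself. In the textbook order, RNA sensors of the RIG-I family signal through IRF factors to make type I interferon, and the secreted interferon acts through JAK kinases and STAT factors on promoters that carry an interferon-stimulated response element. In melanoma cells the same genes bear on antigen display and on the recruitment of T cells. The 9 interferon-linked genes described here are the RNA sensors Ddx58 (RIG-I) and Ifih1 (MDA5), the GTPases Irgm1, Gbp2 and Gbp3, the chemokine Cxcl10, the transcription factors Irf1 and Irf7, and the ubiquitin-like modifier Isg15. They were chosen by gene symbol, with earlier results of these data known. The brightest probe set that is annotated to a single symbol stood for each gene. By that rule 7 of the 9 genes were measured, among 19938 genes in all. Gbp2 and Isg15 had only a probe set shared with another symbol, and those 2 probe sets are described separately by their identifiers.

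The cells were mouse B16 F10.9-4 melanoma cells in which doxycycline switches on LIP, the short isoform of the transcription factor C/EBPβ, made from an internal start and missing most of its transactivation region. Tunicamycin, which blocks N-linked glycosylation and so causes endoplasmic reticulum stress, was added after the doxycycline pretreatment, and RNA was taken after 0, 5 and 12 h. The 6 groups were LIP with 12 h of tunicamycin, LIP with 5 h of tunicamycin, LIP at 0 h, 12 h of tunicamycin without LIP, 5 h of tunicamycin without LIP, and vehicle, each with 3 Affymetrix arrays from 3 independent experiments. All 6 groups are cultures of this cell line, and the labels name no other genetic change in it. Cells without the LIP construct given doxycycline, and vehicle cells harvested at 5 or 12 h, were not analysed here, so an action of doxycycline cannot be told apart from that of LIP, nor time in culture from tunicamycin.

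Levels below are log2 RMA intensities, and a change is a difference of 2 group means on that scale, given with its standard error. A gene was called changed when its limma p-value, adjusted over all 19938 genes, was under 0.05. As a measure of silence, 1194 olfactory and vomeronasal receptor genes had a median of 4.75 and a 95th percentile of 6.07. Cebpb averaged 11.18 ± 0.137 in LIP cells and 9.33 ± 0.126 in vehicle cells at 0 h (SD, n = 3 each). Tunicamycin also raised Cebpb without LIP, by 0.96 at 12 h (adjusted p = 4.8e-09). The LIP change of Cebpb was 1.84 at 0 h and 1.22 at 12 h. Cells without LIP thus did not keep a constant Cebpb level, and the part of this in the results was not tested. Ddit3, which encodes the stress factor CHOP, averaged 11.61 ± 0.00752 after 12 h of tunicamycin and 8.72 ± 0.202 in vehicle cells (SD, n = 3 each). Arrays of a group correlated at 0.993 to 0.998, and the array of 5 h tunicamycin in experiment 2 and that of 12 h tunicamycin in experiment 3 stood furthest from their groups, with residual SDs of 0.113 and 0.0895. All 7 melanoma markers measured were above the silent range in every group, and their summed log2 level was 15.1 to 15.3 over the LIP arrays and 15.5 to 15.6 over the others. The melanoma markers were called lower with LIP for 5, 6 and 6 of 7 genes at 0, 5 and 12 h, and the part of this in the results below was not tested. Of 7 leukocyte markers, Cd3e and Cd68 were above that range while Ptprc, Adgre1, Csf1r, Itgam and Itgax were not, and the summed level of this list was 8.84 to 9.14 on the LIP arrays and 8.92 to 9.33 on the others. Col1a1, Col1a2 and Pdgfra of 4 fibroblast markers were above it, at most Cdh5 of 3 endothelial markers was, and neither of 2 keratinocyte markers was. With LIP, Cd68 fell at 0 and 5 h, by 0.43 and 0.41, Col1a2 fell at 0, 5 and 12 h, by 0.31, 0.39 and 0.49, and Col1a1 rose at 12 h, by 0.25. After 12 h of tunicamycin Cd68 fell by 0.56 with LIP and by 0.72 without, Col1a1 rose by 0.30 and Pdgfra fell by 0.25 with LIP, and Col1a2 rose by 0.26 without. The summed level of the fibroblast list was 9.05 to 9.24 on the LIP arrays and 9.12 to 9.46 on the others, and the part of these markers in the results was not tested either. A lower level of RNA can come from fewer expressing cells or from less RNA per cell, and bulk arrays cannot tell these apart.

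LIP raised the RNA sensors and Gbp3 and lowered Cxcl10 at every time, with or without tunicamycin. At 0 h, Ddx58, Ifih1 and Gbp3 rose and Cxcl10 fell with LIP, 4 of 7 members against 10.7% of all genes called. At 5 h of tunicamycin 5 of 7 members were called, 4 higher and 1 lower with LIP, against 12% of all genes. At 12 h of tunicamycin 4 of 7 members were called, 3 higher and 1 lower, against 14.7% of all genes. The median LIP change over the 7 members was 0.15 at 0 h, 0.32 at 5 h and 0.01 at 12 h, against medians of 0.02, -0.01 and 0.00 over all genes. Ddx58, Ifih1 and Gbp3 were thus 3 of 7 members higher at all 3 times, where 2.74% of all genes were. Cxcl10 was the member lower at all 3 times, where 2.3% of all genes were. The members and the gene lists below were chosen with earlier results of these data known. Their counts beside the shares of all genes are therefore a description and not a test.

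**Figure D1:**
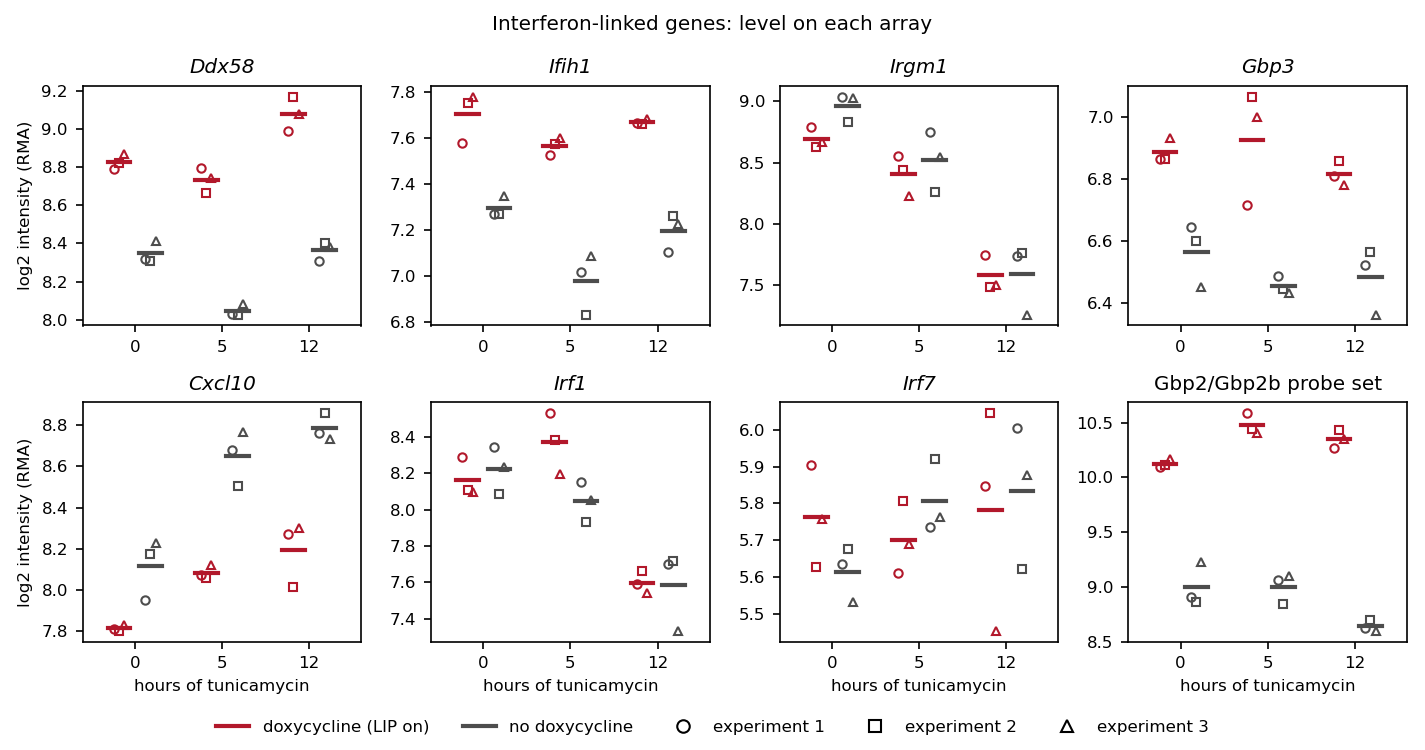
Log2 RMA intensity of each array (vertical axis) by hours of tunicamycin (horizontal axis) for the 7 measured members and for the probe set shared by Gbp2 and Gbp2b, with LIP arrays in red left of arrays without LIP in grey. Symbols mark the 3 experiments and bars the group means. Ddx58, Ifih1, Gbp3 and the shared probe set lie higher with LIP and Cxcl10 lower at each time, while Irgm1 and Irf1 are lowest at 12 h in both states.

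By 12 h tunicamycin raised Cxcl10 and lowered Irgm1 and Irf1, with and without LIP. After 5 h without LIP, Cxcl10 rose and Ddx58, Ifih1 and Irgm1 fell, 4 of 7 members against 9.02% of all genes, of which 4.08% rose and 4.94% fell. After 12 h without LIP, Cxcl10 rose and Irgm1 and Irf1 fell, 3 of 7 members against 27.7% of all genes. In LIP cells 1 of 7 members, Cxcl10, was called after 5 h, against 12.1% of all genes (6.54% upward), and 4 of 7 after 12 h, against 29.9%. Those 4 were Ddx58 and Cxcl10, higher, and Irgm1 and Irf1, lower. Between 12 h and 5 h of tunicamycin 4 of 7 members were called without LIP, against 25% of all genes, and 3 of 7 with LIP, against 26.3%. In the LIP cells 1 of those 3 rose, where 10.9% of all genes did, and 2 fell, where 15.4% did.

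**Figure D2:**
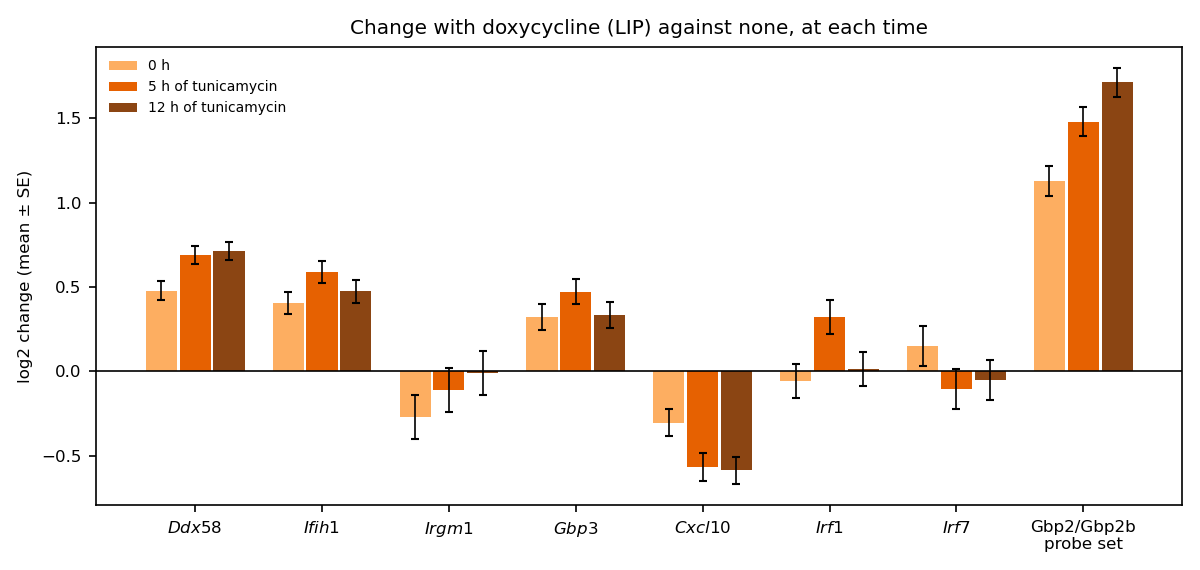
Log2 change with LIP against no LIP (vertical axis, bars, with the standard error of the limma fit) at 0, 5 and 12 h of tunicamycin for each member and for the probe set of Gbp2 and Gbp2b. Bars of Ddx58, Ifih1, Gbp3 and the shared probe set are above 0 and those of Cxcl10 below 0 at all 3 times.

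The cytosolic RNA sensors Ddx58 and Ifih1 are helicases that recognise viral RNA, short ends with a triphosphate in the case of RIG-I and long double strands in the case of MDA5, and both signal through Mavs. Their RefSeq promoter windows, 250 bases before to 50 after the start site on GRCm38.p6, both hold the core of the interferon-stimulated response element, which was searched on both strands as GAAA, any 2 bases and GAAA. The core spans bases 3 to 12 after the start of Ddx58, on the opposite strand, and bases 33 to 42 after the start of Ifih1. Both stretches are shown because these are the members that rose with LIP at every time and carry the core within the transcribed part, with the core in capitals.
Ddx58, chr4:40239804-40239833, minus strand: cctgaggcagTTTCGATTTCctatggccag
Ifih1, chr2:62646206-62646235, minus strand: gagaagagaatcGAAACAGAAAccgatctg
The letters say nothing of whether a factor binds there. This core stood in the windows of 7 of the 9 members and of 3.99% of 27018 genes in the same table. The members were listed as interferon-linked genes, so a high share is built into the choice and is no test. The members without it in this window were Irf1 and Irf7.

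Ddx58 reached 8.79, 8.82 and 8.87 in LIP cells at 0 h, against 8.32, 8.31 and 8.41 in vehicle cells. At 5 h of tunicamycin it stood at 8.80, 8.66 and 8.74 with LIP, against 8.03, 8.03 and 8.08 without. At 12 h of tunicamycin its values were 8.99, 9.17 and 9.08 with LIP, against 8.31, 8.40 and 8.38 without. Every LIP array was above every array without LIP at its own time, where 34.2%, 24.2% and 26.2% of all genes had no overlap. The LIP change was 0.48 ± 0.054 at 0 h (adjusted p = 1.18e-05), 0.69 ± 0.054 at 5 h (adjusted p = 8.62e-08) and 0.71 ± 0.054 at 12 h (adjusted p = 2.85e-08), or 1.39-fold, 1.61-fold and 1.64-fold. Without LIP, Ddx58 fell by 0.30 at 5 h of tunicamycin (adjusted p = 0.00144) and at 12 h stood 0.02 from vehicle (adjusted p = 0.888). With LIP its change was -0.09 at 5 h (adjusted p = 0.378) and 0.25 at 12 h (adjusted p = 0.00113). In order of level, 5 h of tunicamycin without LIP was lowest, vehicle and 12 h of tunicamycin overlapped above it, LIP with 5 h of tunicamycin and LIP at 0 h overlapped next, and LIP with 12 h of tunicamycin was highest and apart.

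Ifih1 measured 7.58, 7.75 and 7.78 in LIP cells at 0 h, against 7.27, 7.27 and 7.35 in vehicle cells. At 5 h of tunicamycin it was at 7.53, 7.57 and 7.60 with LIP, against 7.02, 6.83 and 7.09 without. At 12 h the values were 7.66, 7.66 and 7.68 with LIP, against 7.10, 7.26 and 7.23 without. As for Ddx58, no LIP array overlapped an array without LIP at the same time. LIP changed Ifih1 by 0.41 ± 0.065 at 0 h (adjusted p = 0.000422), 0.59 ± 0.065 at 5 h (adjusted p = 5.39e-06) and 0.47 ± 0.065 at 12 h (adjusted p = 4.11e-05). With 5 h of tunicamycin alone Ifih1 fell by 0.32 (adjusted p = 0.00423), and at 12 h it differed from vehicle by -0.10 (adjusted p = 0.319). The rise of Ifih1 between 5 and 12 h without LIP, 0.22 (adjusted p = 0.0186), ended without the 5 h array of experiment 2, at 0.14 (adjusted p = 0.122), without the 12 h arrays of experiments 2 and 3 in turn (adjusted p = 0.0818 and 0.0586), and when the groups compared were fitted alone (adjusted p = 0.101). With array weights it ended too (adjusted p = 0.187), as it did without the 2 arrays that stood furthest from their groups (adjusted p = 0.239). In LIP cells Ifih1 moved by -0.14 at 5 h and -0.03 at 12 h of tunicamycin (adjusted p = 0.233 and 0.796).

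Over the 18 arrays the levels of Ddx58 and Ifih1 correlated at 0.936, a description of arrays that share their treatments and experiments. The gene with the level pattern most like that of Ddx58, among 12395 genes above the silent range, was Sgms1 (r = 0.981), followed by Atp2b1 (0.975) and Dse (0.972). For Ifih1 these were Vwa5a (0.956), Ift43 (0.944) and Asah2 (0.943).

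Around the sensors, 18 of 19 listed genes of RNA and DNA sensing were measured. With LIP, 2 rose and 1 fell at 0 h, 3 rose and 0 fell at 5 h, and 4 rose and 0 fell at 12 h. Over all genes, 4.89%, 6.76% and 6.95% rose and 5.82%, 5.21% and 7.77% fell. Tank, a scaffold of the kinases that activate IRF factors, rose at each time, by 0.17, 0.30 and 0.24 (adjusted p = 0.0298, 0.000394 and 0.00238). Tbk1, one of those kinases, rose by 0.27 at 5 h and 0.23 at 12 h (adjusted p = 0.00276 and 0.00823), and Cyld, a deubiquitinase, by 0.30 and 0.34 (adjusted p = 0.0100 and 0.0031). Fitted on their own groups, the rise of Cyld at 5 h was lost, and that of Tank at 0 h was lost in 8 of 30 alternative fits. At 0 h Nlrx1, a mitochondrial member of the NOD-like family, rose by 0.35 (adjusted p = 0.00606) and Cgas, the DNA sensor, fell by 0.35 (adjusted p = 0.0117). The median LIP change over this list was 0.03, 0.13 and 0.07, against 0.02, -0.01 and 0.00 over all genes. Mavs, the adaptor that both sensors use, was called in none of the 3 LIP comparisons.

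After 12 h of tunicamycin without LIP, 4 of these 18 genes rose and 6 fell, where 11.9% of all genes rose and 15.8% fell. Ticam1, the adaptor of TLR3, rose by 0.68 (adjusted p = 7.58e-08) and Cyld by 0.50 (adjusted p = 2.9e-05). Eif2ak2, the RNA-activated kinase PKR, fell by 0.71 (adjusted p = 2.48e-06), and Sting1 and Cgas of the DNA-sensing arm by 0.46 each (adjusted p = 9.97e-06 and 0.000337). After 5 h, 0 rose and 4 fell, led by Eif2ak2 at -0.55 (adjusted p = 0.000419), where 4.08% of all genes rose and 4.94% fell. The fall of Tbk1, Tlr3 and Zc3hav1 at 5 h was lost without the 2 arrays that stood furthest from their groups, which left 1 of the 4.

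The GTPases gave 3 different patterns. Irgm1 is an immunity-related GTPase that acts on membranes and in autophagy of pathogens, and Gbp2 and Gbp3 are guanylate-binding proteins that coat vacuoles of pathogens. Their promoter stretches are shown because Irgm1 and Gbp3 each hold 2 cores that overlap by 4 bases, close to the start site, with the joined cores in capitals. The capitals span bases -30 to -15 of Irgm1 and, read on the opposite strand, bases -45 to -30 of Gbp3.
Irgm1, chr11:48871421-48871540, minus strand: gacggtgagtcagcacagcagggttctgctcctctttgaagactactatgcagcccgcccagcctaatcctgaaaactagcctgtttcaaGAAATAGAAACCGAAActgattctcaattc
Gbp3, chr3:142559924-142560043, plus strand: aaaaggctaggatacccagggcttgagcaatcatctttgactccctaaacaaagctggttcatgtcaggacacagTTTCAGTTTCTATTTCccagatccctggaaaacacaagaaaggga
Gbp3 was also the member with a C/EBP site (TTGCNNAA, in 12.2% of genes) and, in a second RefSeq window, a C/EBP-ATF composite site (TGATGNAA, in 4.51% of genes).

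Irgm1 carried the largest change among the 7 measured members over the LIP and tunicamycin comparisons. It measured 7.73, 7.76 and 7.26 after 12 h of tunicamycin and 8.75, 8.26 and 8.54 after 5 h, against 9.04, 8.83 and 9.03 in vehicle cells. The 12 h arrays lay below all others without LIP. In these cells 39.1% of all genes had no overlap between 12 h and 0 h, and 33.9% between 12 h and 5 h. Irgm1 changed by -1.38 ± 0.131 at 12 h (adjusted p = 1.3e-07), which is 2.61-fold lower, and by -0.93 ± 0.131 from 5 to 12 h (adjusted p = 1.91e-05). At 5 h Irgm1 fell by 0.45 (adjusted p = 0.0381), a call lost without the 5 h array of experiment 2 (adjusted p = 0.189), without the 5 h array of experiment 3 (0.0789), without the vehicle arrays of experiments 1 and 3 in turn (0.132 and 0.127), with the compared groups fitted alone (0.0708) and without the 2 arrays that stood furthest from their groups (0.062).

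In LIP cells Irgm1 stood at 7.75, 7.48 and 7.50 after 12 h of tunicamycin and 8.55, 8.44 and 8.23 after 5 h, against 8.79, 8.63 and 8.67 at 0 h. It fell by 1.12 ± 0.131 at 12 h (adjusted p = 1.56e-06), 2.17-fold lower, and by 0.83 from 5 to 12 h (adjusted p = 6.56e-05). The 12 h groups with and without LIP overlapped, and the LIP changes of -0.27 at 0 h, -0.11 at 5 h and -0.01 at 12 h did not pass the test (adjusted p = 0.233, 0.728 and 0.985). With the 0 h groups fitted alone, the first of these passed (adjusted p = 0.0206). The genes with level patterns most like Irgm1 were Snx27 (r = 0.975), Ercc6l (0.973) and Kdm2b (0.973).

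Gbp3 was dim, 6.36 to 7.07 over all arrays, just above the silent range, where RMA values understate a fold change. It read 6.86, 6.86 and 6.93 with LIP at 0 h, against 6.65, 6.60 and 6.45 in vehicle cells. The values at 5 h were 6.71, 7.07 and 7.00 with LIP, against 6.49, 6.44 and 6.43 without, and at 12 h 6.81, 6.86 and 6.78 with LIP, against 6.52, 6.56 and 6.36 without. The 2 states did not overlap at any time, which held at 0, 5 and 12 h for 34.2%, 24.2% and 26.2% of all genes. The LIP change was 0.32 ± 0.076 at 0 h (adjusted p = 0.00955), 0.47 ± 0.076 at 5 h (adjusted p = 0.000285) and 0.33 ± 0.076 at 12 h (adjusted p = 0.00461). The first of these was lost without the vehicle array of experiment 3, at 0.26 (adjusted p = 0.0628). Tunicamycin left Gbp3 uncalled at both times, with changes of 0.04 and -0.07 in LIP cells and -0.11 and -0.08 without LIP. Without the LIP array of experiment 1 at 5 h, its change from 5 to 12 h in LIP cells passed the test, at -0.22 (adjusted p = 0.0229). Gstm7 (r = 0.916), Lifr (0.913) and Tead3 (0.907) had the patterns most like it.

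The probe set 10496592, annotated to Gbp2 and to Gbp2b, changed more with LIP than any of the 7 measured members. Its values were 10.10, 10.12 and 10.17 with LIP at 0 h, against 8.90, 8.87 and 9.23 in vehicle cells. At 5 h they were 10.59, 10.44 and 10.41 with LIP, against 9.07, 8.84 and 9.10 without. At 12 h they were 10.27, 10.43 and 10.35 with LIP, against 8.62, 8.70 and 8.60 without. No array with LIP overlapped an array without it. Among the 19938 genes, 34.2%, 24.2% and 26.2% had no overlap between LIP states at 0, 5 and 12 h. Tested among the 1621 probe sets with several symbols, the LIP change was 1.13 ± 0.087 at 0 h (adjusted p = 8.92e-07), 1.48 ± 0.087 at 5 h (adjusted p = 2e-08) and 1.71 ± 0.087 at 12 h (adjusted p = 2.52e-09), or 2.19-fold, 2.79-fold and 3.28-fold. At 5 h of tunicamycin it rose by 0.35 with LIP (adjusted p = 0.0294), a call made in 17 of 23 settings, and stood 0.00 from vehicle without LIP (adjusted p = 0.992). At 12 h of tunicamycin it moved by 0.23 with LIP (adjusted p = 0.0978) and fell by 0.36 without LIP (adjusted p = 0.0100). The annotation does not say which of the 2 genes gave this signal. A probe set annotated to Gbp2b alone was at 5.37 to 5.56 in every group, below the silent bound, and changed with LIP by 0.19, 0.10 and 0.13 (adjusted p = 0.101, 0.467 and 0.286). Genes of this family are close copies of each other, so probes of one may also read another.

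Of 17 other listed GTPases of the IRG and GBP families, 10 had a probe set of their own and 3 were above the silent range. Gbp7 was the one called with LIP, higher by 0.81 at 0 h (adjusted p = 3.01e-06), 1.18 at 5 h (adjusted p = 1.27e-08) and 0.78 at 12 h (adjusted p = 1.31e-06). Its level was 7.90 ± 0.0659 with LIP and 7.09 ± 0.0428 in vehicle cells at 0 h (SD, n = 3 each). Tunicamycin without LIP lowered Gbp7 by 0.48 at 5 h (adjusted p = 0.000785) and 0.47 at 12 h (adjusted p = 0.000114), where Gbp3 was not called. The median LIP change of the 10 was 0.05, 0.02 and 0.08, near that of all genes. With LIP, 1 of the 10 rose at each time, where 4.89%, 6.76% and 6.95% of all genes did.

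**Figure D3:**
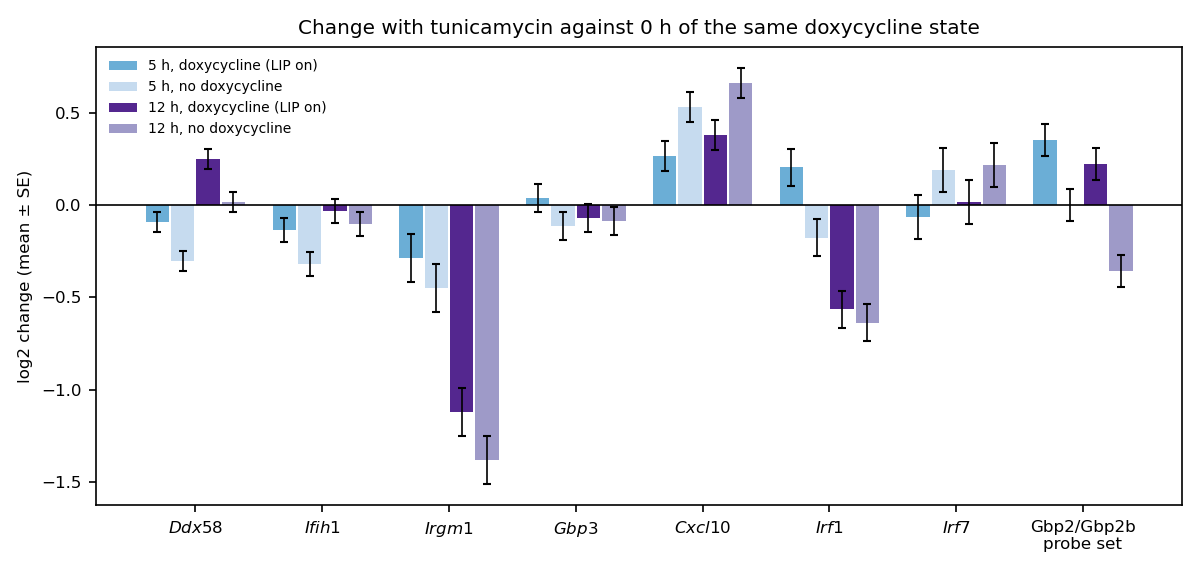
Log2 change at 5 and 12 h of tunicamycin against 0 h (vertical axis, bars, with the standard error of the limma fit) in LIP cells and, to the right of each, in cells without LIP, for each member and for the probe set of Gbp2 and Gbp2b. Irgm1 and Irf1 fall at 12 h in both states and Cxcl10 rises in both, while Ddx58 and Ifih1 fall at 5 h without LIP.

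Cxcl10 encodes the chemokine IP-10, which draws T cells and NK cells through the receptor CXCR3, and its promoter is known to join interferon and NF-κB signals. The window is shown because Cxcl10 was the member with an NF-κB site (GGG, any 2 bases, TT, any base and CC, in 5.48% of genes), at bases -103 to -94, beside the interferon core at -213 to -204. Both are in capitals, the core first.
Cxcl10, chr5:92348890-92349139, minus strand: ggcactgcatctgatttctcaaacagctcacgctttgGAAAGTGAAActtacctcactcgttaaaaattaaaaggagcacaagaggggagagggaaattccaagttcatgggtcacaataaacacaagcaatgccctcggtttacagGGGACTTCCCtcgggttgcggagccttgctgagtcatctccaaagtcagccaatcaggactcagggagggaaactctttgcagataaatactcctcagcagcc

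With LIP at 0 h Cxcl10 measured 7.81, 7.80 and 7.83, against 7.95, 8.18 and 8.23 in vehicle cells. At 5 h of tunicamycin it read 8.07, 8.06 and 8.12 with LIP, against 8.68, 8.51 and 8.77 without. At 12 h it read 8.27, 8.01 and 8.30 with LIP, against 8.76, 8.86 and 8.73 without. The LIP arrays were lower at each time, and tunicamycin arrays were higher than 0 h arrays of the same LIP state. Between LIP states, 34.2%, 24.2% and 26.2% of all genes had no overlap at 0, 5 and 12 h. Between tunicamycin and 0 h, 28% and 41.1% had none at 5 and 12 h with LIP, and 27.9% and 39.1% without. LIP changed Cxcl10 by -0.30 ± 0.081 at 0 h (adjusted p = 0.0199), -0.57 ± 0.081 at 5 h (adjusted p = 8.63e-05) and -0.59 ± 0.081 at 12 h (adjusted p = 4.11e-05), or 1.23-fold, 1.48-fold and 1.50-fold lower. The 0 h call was lost when any array of LIP at 0 h was left out (adjusted p = 0.0616, 0.0652 and 0.0513) or the vehicle array of experiment 2 or 3 (0.0835 and 0.109).

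Tunicamycin raised Cxcl10 without LIP by 0.53 ± 0.081 at 5 h (adjusted p = 0.000386) and 0.66 ± 0.081 at 12 h (adjusted p = 3.11e-06). In LIP cells the rises were 0.27 at 5 h (adjusted p = 0.0365) and 0.38 at 12 h (adjusted p = 0.00111), and the first was lost without any one of its 6 arrays (adjusted p of 0.0729 to 0.115). Cxcl10 in LIP cells with tunicamycin thus overlapped vehicle cells at both times. Ggnbp2os (r = 0.957), Pde4d (0.917) and Efcab7 (0.906) had the patterns most like it, and over the 18 arrays Cxcl10 correlated at -0.747 with Gbp3 and -0.737 with Ifih1.

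Cxcl9 and Cxcl11, the other ligands of CXCR3, were in a list of 20 measured chemokines and NF-κB targets, of which 12 were above the silent range. With LIP, 1 of the 20 rose at 0 h (Cxcl9, by 0.22), 1 at 5 h (Relb, by 0.20), each a call lost with a variance trend and robust estimation, and 3 fell at 12 h (Ccl5, Nfkbie and Nfkb2, by 0.26, 0.24 and 0.20). With the array medians set equal, 0 of those 3 remained called. Over all genes 4.89% rose with LIP at 0 h, 6.76% rose at 5 h and 7.77% fell at 12 h. After tunicamycin without LIP, 3 of the 20 rose and 0 fell at each time, where 4.08% of all genes rose at 5 h and 11.9% at 12 h. At 5 h these were Nfkbia, Nfkb2 and Relb, by 0.31, 0.25 and 0.23 (adjusted p = 0.00471, 0.00784 and 0.0226). At 12 h they were the NF-κB subunits Relb and Nfkb2, by 0.81 and 0.62 (adjusted p = 6.54e-09 and 8.68e-08), and the chemokine Ccl5, by 0.46 (adjusted p = 0.000138).

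Irf1 and Irf7 are transcription factors of the interferon response, Irf1 as an early target of interferon signalling and Irf7 as the amplifier of type I interferon. The Irf1 promoter is shown for its STAT site (TTCNNNGAA, in 9.55% of genes), at bases -90 to -82 and in capitals.
Irf1, chr11:53769894-53770013, plus strand: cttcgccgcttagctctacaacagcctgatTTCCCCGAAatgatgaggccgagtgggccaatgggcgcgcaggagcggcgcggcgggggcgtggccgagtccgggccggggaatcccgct
Over the 18 arrays the levels of Irf1 and Irgm1 correlated at 0.877, the second highest among pairs of members after that of the sensors.

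After 12 h of tunicamycin without LIP, Irf1 stood at 7.70, 7.72 and 7.34, and after 5 h at 8.15, 7.93 and 8.05, against 8.34, 8.09 and 8.23 in vehicle cells. In LIP cells it stood at 7.59, 7.66 and 7.54 after 12 h and 8.53, 8.38 and 8.19 after 5 h, against 8.29, 8.11 and 8.09 at 0 h. In both states the 12 h arrays lay below all the others. Between 12 h and 0 h, 41.1% of all genes had no overlap with LIP and 39.1% without. Between 12 h and 5 h these shares were 35% and 33.9%. The 12 h change of Irf1 was -0.56 ± 0.101 with LIP (adjusted p = 0.000202) and -0.64 ± 0.101 without (adjusted p = 6.47e-05). Between 5 and 12 h it was -0.77 with LIP (adjusted p = 8.46e-06) and -0.46 without (adjusted p = 0.00186). The 5 h changes, 0.21 with LIP and -0.18 without, did not pass the test (adjusted p = 0.249 and 0.322).

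LIP raised Irf1 at 5 h by 0.32 ± 0.101 (adjusted p = 0.0429) and not at 0 h (-0.06, adjusted p = 0.799) or 12 h (0.01, adjusted p = 0.966). That call was lost with the groups fitted alone (adjusted p = 0.0837), with the mean of both Irf1 probe sets (0.141) and without the 2 arrays that stood furthest from their groups (0.0641). It was also lost without the 5 h LIP arrays of experiments 1 and 2 in turn (adjusted p = 0.199 and 0.108) and without the 5 h arrays of experiments 2 and 3 in cells without LIP (0.153 and 0.0932). Leaving out an array of another group ended it in 5 cases, the vehicle array of experiment 3, the 0 h LIP arrays of experiments 2 and 3 and the 12 h LIP arrays of experiments 1 and 3 (adjusted p of 0.0513 to 0.0545). The second, dimmer probe set of Irf1, at a mean level of 6.53, was called in none of the 11 comparisons and changed by -0.03 with LIP at 5 h (adjusted p = 0.885) and by 0.11 at 12 h of tunicamycin (adjusted p = 0.309). So the fall of Irf1 rests on 1 of its 2 probe sets. S100a4 (r = 0.952), Sting1 (0.945) and Prkag2 (0.943) had the level patterns most like Irf1.

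Irf7 ranged from 5.45 to 6.05 over the 18 arrays, below the silent bound, and passed no test. Its group means were 5.78, 5.70 and 5.76 in LIP cells at 12, 5 and 0 h, against 5.83 and 5.81 at 12 and 5 h of tunicamycin and 5.61 in vehicle cells, and each overlapped its neighbour in that order of level. The probe set 10451287, shared by Isg15 and Gm9706, was at 5.78 to 5.91 in every group, also below that bound, and passed none of the 11 tests. Neither signal rose above the silent bound in any group, and a change within the range of the receptor genes may go unseen. Isg15 itself holds 3 overlapping interferon cores within its promoter window.

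Among 6 other measured IRF genes, 2 rose with LIP at 5 h, Irf2 by 0.35 (adjusted p = 0.00396) and Irf9, a partner of STAT factors, by 0.24 (adjusted p = 0.0117), where 6.76% of all genes rose. The rise of Irf9 was lost with the groups fitted alone. None of the 6 was called in the tunicamycin comparisons, where 9.02% to 29.9% of all genes were. Of 4 genes that attach or remove Isg15, 0 rose and 3 fell after 12 h of tunicamycin without LIP, where 15.8% of all genes fell. Ube2l6, the conjugating enzyme, fell by 0.76 (adjusted p = 4.96e-06), Herc6 by 0.36 (adjusted p = 5.74e-05) and Uba7 by 0.22 (adjusted p = 0.00286).

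Whether the LIP change differed between tunicamycin and 0 h was tested as an interaction. No LIP cells kept for 5 or 12 h without tunicamycin were analysed here. Stress therefore cannot be told apart from a longer time since doxycycline was added. At 5 h of tunicamycin, 0 of 7 members were called, against 0.0301% of all genes, and at 12 h 0 of 7, against 1.84%, 0.993% upward and 0.848% downward. At 5 h the adjusted p was 0.495 for Ddx58, 0.574 for Cxcl10 and 0.496 for Irf1. At both times 0 of 7 were called in any alternative fit. For Ddx58 the LIP change was larger by 0.24 ± 0.0762 at 12 h than at 0 h (adjusted p = 0.152). For Cxcl10 it was lower by 0.28 ± 0.115 (adjusted p = 0.294). A miss of the threshold does not show that the changes were alike.

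**Figure D4:**
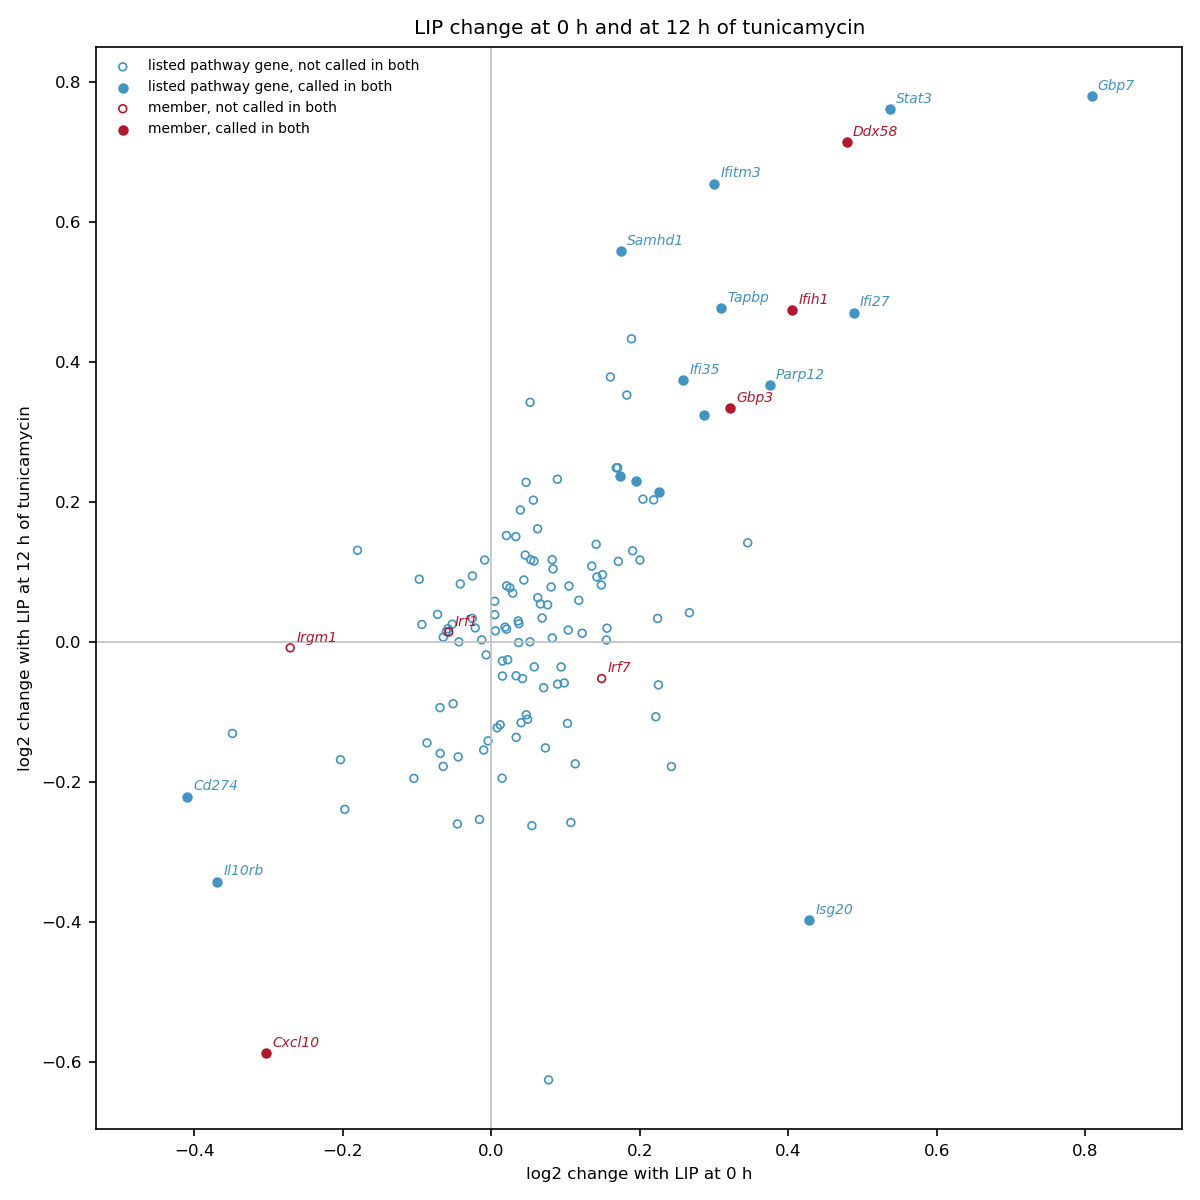
Log2 change with LIP at 0 h (horizontal axis) and at 12 h of tunicamycin (vertical axis) for the members (red) and 127 listed genes of the pathway (blue), filled where called in both. The 2 comparisons share no array. Ddx58, Ifih1 and Gbp3 lie at the upper right with Gbp7, Stat3 and Ifitm3, Cxcl10 lies at the lower left, and Isg20 is higher with LIP at 0 h and lower at 12 h.

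In the wider program, 127 listed genes that are no members were measured, and with LIP 11 of them were higher and 1 lower at all 3 times. The 11 were Gbp7, Tank, Jak1, Stat3, Ifitm3, Ifi27, Ifi35, Parp12, Parp14, Samhd1 and Tapbp, and the lower one was Cd274, which encodes PD-L1. That is 11 of 127 against 2.74% of all genes upward and 1 of 127 against 2.3% downward. The 12 h call of Cd274 was lost in 9 of 30 alternative fits. The 0 h calls of Tank, Ifi35 and Samhd1 were lost in 8 of 30 each. The 12 h calls of Cd274 and Parp14 were lost without the 2 arrays that stood furthest from their groups. Stat3 rose by 0.54, 0.80 and 0.76 (adjusted p = 1.32e-05, 6.51e-08 and 5.81e-08), and the receptor kinase Jak1 by 0.29, 0.23 and 0.32 (adjusted p = 0.000585, 0.00239 and 8.52e-05). Of the 19 measured ligands, receptors and JAK-STAT genes, 2, 4 and 3 rose with LIP at 0, 5 and 12 h, where 4.89%, 6.76% and 6.95% of all genes did. In the same comparisons 1, 0 and 2 of the 19 fell, where 5.82%, 5.21% and 7.77% of all genes did. Ifnb1, a type I interferon, was at 5.32 to 5.42 in every group, below the silent bound.

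Of 36 measured antiviral effectors, 7 rose and 0 fell with LIP at 0 h, 10 and 0 at 5 h, and 9 and 2 at 12 h, while 29, 26 and 25 did not pass the test. The shares over all genes were 4.89%, 6.76% and 6.95% upward and 5.82%, 5.21% and 7.77% downward. The medians of the effectors were 0.06, 0.06 and 0.01, near those of all genes. Without the 2 arrays that stood furthest from their groups, the 12 h count was 6 and 3. Ifi27, a mitochondrial protein, rose by 0.49, 0.54 and 0.47 (adjusted p = 4.36e-06, 5.55e-07 and 1.9e-06). Ifitm3, which blocks viral entry, rose by 0.30, 0.44 and 0.65 (adjusted p = 0.000176, 1.68e-06 and 6.05e-09), and Samhd1, which breaks down nucleotides for DNA synthesis, rose by 0.56 at 12 h (adjusted p = 2.45e-07). The exonuclease Isg20 rose by 0.43 at 0 h and fell by 0.40 at 12 h (adjusted p = 0.00143 and 0.0015).

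Under tunicamycin without LIP, 0 effectors rose and 9 fell at 5 h, where 4.08% of all genes rose and 4.94% fell. At 12 h 3 rose and 11 fell, where 11.9% of all genes rose and 15.8% fell. The medians were -0.11 and -0.08, against 0.02 and 0.00 over all genes. Without the 2 arrays named above, 5 effectors fell at 5 h, and Ifit2, Ifi35, Samd9l, Trim30a and Dtx3l of the 9 had lost the call. Rsad2 (viperin) fell by 0.73 at 5 h (adjusted p = 5.84e-05), Cmpk2 by 0.93 at 12 h (adjusted p = 8.21e-09) and Dtx3l by 0.82 (adjusted p = 8.04e-08). Isg20 went the other way, with a level of 10.00 ± 0.14 after 12 h of tunicamycin and 7.87 ± 0.0515 in vehicle cells (SD, n = 3 each), a change of 2.13 (adjusted p = 3.58e-13).

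**Figure D5:**
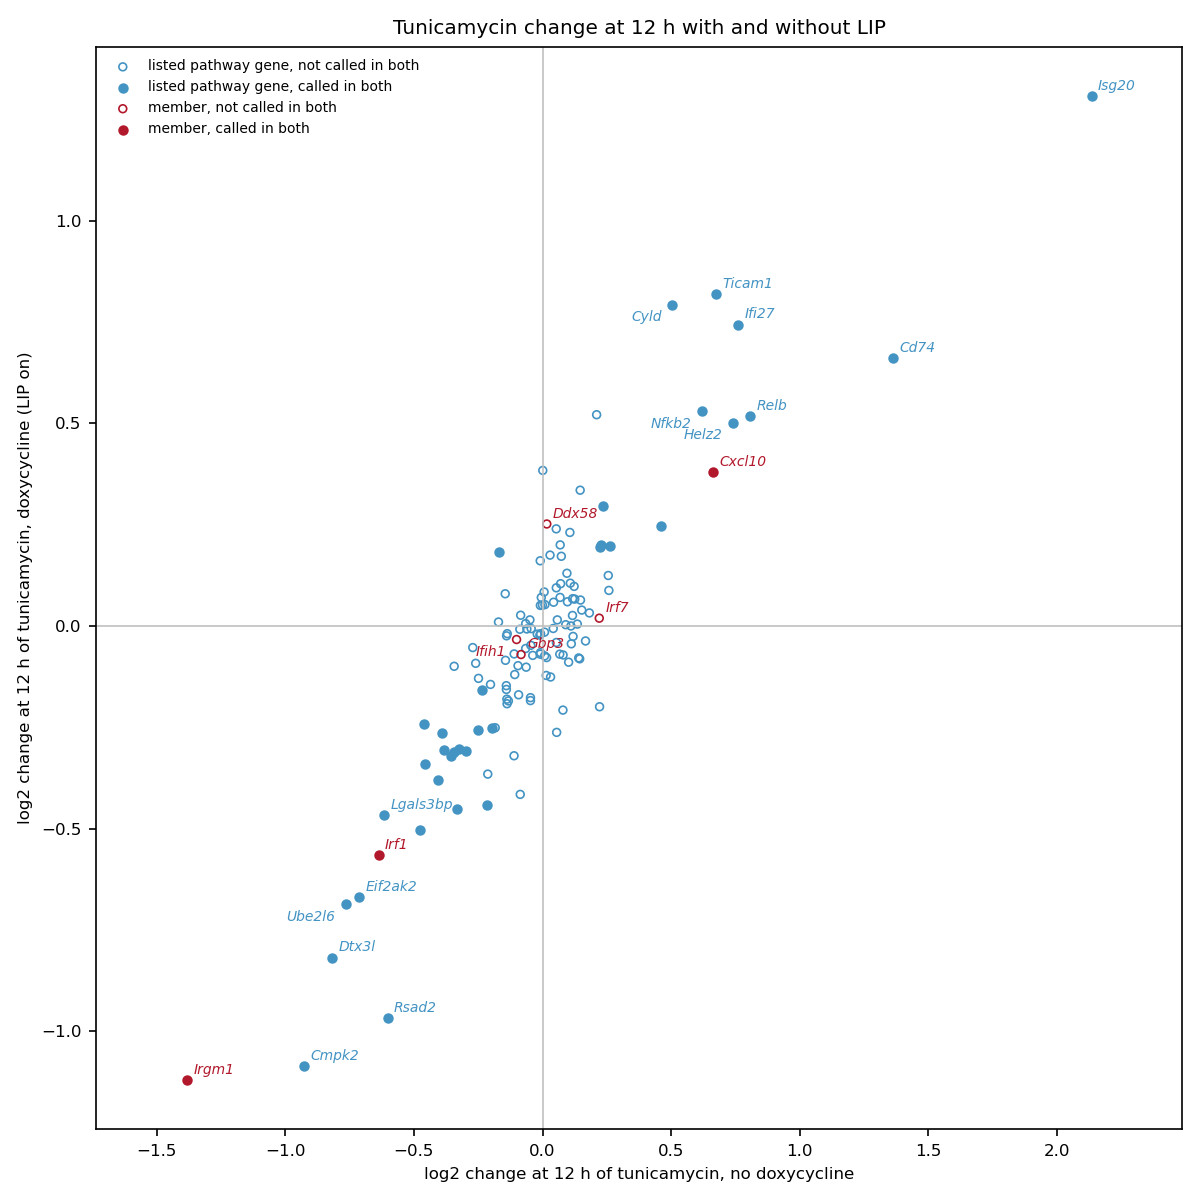
Log2 change at 12 h of tunicamycin in cells without LIP (horizontal axis) and with LIP (vertical axis) for the members (red) and 127 listed genes of the pathway (blue), filled where called in both. The 2 comparisons share no array. Irgm1 and Irf1 lie at the lower left with Cmpk2 and Dtx3l, and Cxcl10 at the upper right with Relb, Cd74 and Isg20.

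At 12 h of tunicamycin Cxcl10, Irgm1 and Irf1 were called in both LIP states, 3 of the 4 members called with LIP and 3 of the 3 called without. Among the 127 other listed genes, 35 were called in both, 70.0% of the 50 called with LIP and 85.4% of the 41 called without, 13 upward, 21 downward and 1 in opposite directions. Over all genes the shares were 72.4% and 78.4%.

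Of 14 measured genes of antigen presentation, 2, 3 and 3 rose and 1, 1 and 2 fell with LIP at 0, 5 and 12 h. Over all genes, 4.89%, 6.76% and 6.95% rose and 5.82%, 5.21% and 7.77% fell. Tapbp, the peptide-loading chaperone tapasin, rose by 0.31, 0.31 and 0.48 (adjusted p = 0.0018, 0.00145 and 1.19e-05), and Cd274 fell by 0.41, 0.37 and 0.22 (adjusted p = 0.000372, 0.000756 and 0.0266). The 12 h call of Cd274 was lost in 9 of 30 alternative fits. Cd74, the invariant chain of class II, was below the silent bound at 0 h, reached 6.76 ± 0.219 after 12 h of tunicamycin without LIP and 6.13 ± 0.0432 with LIP (SD, n = 3 each), and was lower with LIP by 0.63 (adjusted p = 2.49e-05).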

How the data were processed

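RNA of 18 cultures was hybridised to Affymetrix arrays, and the authors deposited log2 intensities after RMA for 35557 probe sets. Partek and RMA are named, without versions, per the submitters' processing notes, and no genome build of the annotation is stated in what was used here. RMA subtracts background, equalises the arrays and summarises probes, which compresses folds of dim genes. Probe sets were named from the platform's annotation: 21789 carried 1 symbol, 1621 several and 12147 none, and the brightest with 1 symbol stood for each of 19938 genes.

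Limma 3.58.1 (R 4.3.3) fitted 6 group means to all arrays, with 12 residual degrees of freedom, and p-values were adjusted over all genes by Benjamini-Hochberg at 0.05 in each of 11 comparisons. The fit was also run on simulated data with independent arrays and no experiment effect. That run checks the code and not the calls made here. The members and the 14 lists were chosen with earlier results of these data known. Named genes were the members, up to 3 called genes of a list per comparison with the largest change (any, where 5 or fewer passed), and the 3 genes most correlated with each called member; Mavs, Ifi35, Parp14, Helz2, Sting1, Cgas, Ifnb1, Gbp2b, Cxcl11 and a few more outside that rule were named after their values were seen. Per the series' design text, each of 3 experiments held all 6 groups. Arrays with the same replicate number were taken as 1 experiment, which the labels do not state outright. Over 45 pairs of same-experiment arrays the residuals correlated at a median of 0.0142, from -0.344 to 0.410, 11 pairs exceeding 0.1. Array number limits the precision. Alternatives were the experiment as a block, fits on the compared groups, rescaling, weights, a variance trend, probe-set means, a filter on dim genes and leaving arrays out. Promoters are RefSeq windows of GRCm38.p6, matched for 9 of 9 members and searched on both strands.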

Additional observations from a re-analysis of the deposited data

Results flagged for a closer look

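The LIP change differed between 12 h of tunicamycin and 0 h, by limma's interaction test, for 4 listed genes near the members. It was larger at 12 h by 0.35 for Ifitm3 (adjusted p = 0.00457) and by 0.38 for Samhd1 (adjusted p = 0.00662). It was lower by 0.83 for Isg20, with an interaction of -0.83 (adjusted p = 0.000419), and by 0.70 for Cd74, with an interaction of -0.70 (adjusted p = 0.00318). The Isg20 result was called under all 30 alternatives, and each of the other 3 was lost in 2 fits that left out an experiment or an array. Cd74 rose above the silent bound only after 12 h of tunicamycin, among the 6 groups. In these interactions too, tunicamycin cannot be told apart from time since doxycycline was added.

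The probe set shared by Gbp2 and Gbp2b stands outside the genes counted, and its LIP change of 1.13 at 0 h, 1.48 at 5 h and 1.71 at 12 h was called in 23 of 23 settings. The change at 12 h exceeded that at 0 h by 0.58 (adjusted p = 0.0421 among 1621 probe sets), a difference under the threshold in 8 of 23 settings, with an adjusted p of 0.0194 to 0.136. Groups of 3 are too small for a test of single outlying arrays.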

How the results depend on the processing

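Of the members' changes under alternatives that kept all arrays or dropped the 2 that stood furthest from their groups, 671 kept their side of the threshold, 8 lost the call and 3 gained it. Over fits that left out an array or an experiment these counts were 1570, 45 and 2. Of changes called in the main or the alternative fit, 0 reversed direction. Some uncalled changes did, such as that of Irf1 with LIP at 0 h, which was -0.06 and reached 0.08 in an alternative. The groups share replicate numbers, and with the number as a block 0 member calls changed. The LIP rise of Ddx58 and Ifih1 was called throughout. Leaving out a whole experiment ended, beside calls of Cxcl10, Irgm1, Irf1 and Ifih1 given above as lost without single arrays, the fall of Ddx58 at 5 h of tunicamycin (adjusted p = 0.0894 without experiment 3), that of Ifih1 (0.0675 and 0.0604 without experiments 2 and 3) and the LIP rise of Gbp3 at 0 and 12 h (0.229 and 0.0952 without experiment 3), while Irf7 passed at 12 h of tunicamycin without experiment 2 (0.36, adjusted p = 0.0213).

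Counts over all genes moved more. With array weights 3631 genes were called for LIP at 0 h, against 2135, 3605 for LIP at 5 h, against 2386, and 4381 for 5 h of tunicamycin, against 1798. With the compared groups alone these were 1413 for LIP at 5 h and 1054 for 5 h of tunicamycin. The interaction count was 2, 27 and 119 at 5 h (groups alone, variance trend, weights), against 6, and 567 and 777 at 12 h (variance trend, weights), against 367. For 5 h of tunicamycin under LIP, 2 members were called with the groups alone and 2 without the 2 arrays, against 1, the added one being Irgm1 (adjusted p = 0.0429 and 0.0365). Setting array medians equal moved the share of upward calls to 68.0% from 56.5% for LIP at 5 h and to 57.5% from 47.2% at 12 h.

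Leaving out an array or a whole experiment gave 652 to 2395 genes and 2 to 4 members for LIP at 0 h. For LIP it gave 1012 to 2479 genes at 5 h and 1454 to 3143 at 12 h. For tunicamycin it gave 419 to 1872 genes and 1 to 4 members at 5 h, 3617 to 5732 genes at 12 h and 3283 to 5080 between the times. Under LIP it gave 941 to 2616 genes and 0 to 1 members at 5 h and 3333 to 5452 genes between the times, and for the interactions 0 to 15 genes at 5 h and 39 to 472 at 12 h. The causes were not tested. The 3 arrays a group, dim probe sets (Gbp3, Irf7) and shared probe sets (Gbp2, Isg15) limit these results.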
